A study of Mus musculus with 28 samples.

Results

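The 4 libraries with the most Drd2 RNA, out of 28 from the ventromedial prefrontal cortex of mice, were set against the 12 with the least. The libraries were chosen by a measured value, the raw Drd2 count over the library's total, times 1e6 (CPM), by which all 28 were ranked, and the other 12, of middle rank, were kept for a separate test. Each library came from 1 female mouse, and the 4 groups of 7 mice were labelled Slit1 knockdown after 3 days of stress (sCVS), Slit1 knockdown without stress, LacZ control virus after 3 days of stress, and LacZ control virus without stress. All mice received a virus, and the tissue was a needle punch of a coronal slice, per the labels' protocols. The ages, the strain, the promoters of the viruses and the lane of each library were not given in the sources used here. Libraries are named by group and by a number in deposit order, which pairs no samples.

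The 4 Drd2-high libraries were stressed knockdown library 7, unstressed knockdown library 6, unstressed LacZ library 6 and unstressed knockdown library 2. Of the 12 Drd2-low libraries, 3 were stressed knockdown, 2 unstressed knockdown, 3 stressed LacZ and 4 unstressed LacZ, so 0 of the 4 Drd2-high and 3 of the 12 Drd2-low libraries came from the stressed LacZ group. The values that chose them were 17.1, 12.5, 10.9 and 7.81 CPM of the total, from 691, 483, 432 and 346 counts. The first library left out on the high side, stressed knockdown library 3, had 4.42. On the low side the last one kept, unstressed knockdown library 3, had 1.32, the first one left out, stressed LacZ library 3, had 1.47, and the lowest of all had 0.697. Since Drd2 chose the libraries, every difference between the high and the low set is a description and carries no p-value.

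Drd2 encodes the dopamine D2 receptor, which couples to inhibitory G proteins and lowers cyclic AMP. Most neurons of the striatum are GABAergic projection neurons of an indirect pathway, which carry the D2 receptor, the adenosine receptor Adora2a and the opioid precursor enkephalin (Penk), or of a direct pathway, which carry the D1 receptor Drd1 and substance P (Tac1). Both kinds share signalling proteins such as Rgs9, which speeds the switching off of G proteins. The prefrontal cortex holds D2 receptors on some of its own neurons, and the striatum and septum lie close by in frontal coronal slices.

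The promoters of 3 genes are shown because their transcripts carry the description: Drd2, by which the libraries were ranked, Rgs9, the fixed marker that separated the sets, and Rarb, the retinoic acid receptor β gene, which also separated them. Each window has 300 bases, 250 before and 50 after the start site, from RefSeq on GRCm38.p6, at chr9:49340153-49340452 on the plus strand for Drd2, chr11:109298132-109298431 on the minus strand for Rgs9 and chr14:16575427-16575726 on the minus strand for Rarb. Capitals mark the GC box GGGCGG in Drd2, the GC box and the TATA box letters TATAAA in Rgs9, and the retinoic acid response element in Rarb, spelled as GTTCA, then 6 bases of any kind, then GTTCA, each searched on both strands.
Drd2: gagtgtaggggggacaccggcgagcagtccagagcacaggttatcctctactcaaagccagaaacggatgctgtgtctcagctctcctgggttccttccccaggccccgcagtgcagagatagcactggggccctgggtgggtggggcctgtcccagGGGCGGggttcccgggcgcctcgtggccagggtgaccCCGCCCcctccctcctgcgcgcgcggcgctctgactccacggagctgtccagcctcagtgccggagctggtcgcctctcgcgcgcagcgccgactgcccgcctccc
Rgs9: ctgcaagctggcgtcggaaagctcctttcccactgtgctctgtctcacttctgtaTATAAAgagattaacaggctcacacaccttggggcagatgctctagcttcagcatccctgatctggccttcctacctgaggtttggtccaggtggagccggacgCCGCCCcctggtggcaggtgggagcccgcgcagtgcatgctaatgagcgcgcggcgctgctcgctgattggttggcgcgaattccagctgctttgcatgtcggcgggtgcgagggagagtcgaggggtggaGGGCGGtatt
Rarb: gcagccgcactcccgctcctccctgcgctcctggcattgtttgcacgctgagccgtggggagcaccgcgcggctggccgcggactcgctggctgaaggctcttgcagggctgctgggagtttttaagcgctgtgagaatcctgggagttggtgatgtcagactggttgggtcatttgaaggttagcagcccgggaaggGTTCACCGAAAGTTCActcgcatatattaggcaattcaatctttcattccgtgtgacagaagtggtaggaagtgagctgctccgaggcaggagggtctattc

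The GC box letters were found in 35.7% of all 32851 RefSeq promoter windows of the same length, and the TATA box letters in 13.6%. The response element letters were found in 25 windows, 0.0761% of them, and those of Rarb begin at position -52 from the start site. The matches do not overlap one another. A further motif, the cyclic AMP response element TGACGTCA, was found in 1.79% of windows and in none of these 3. A match says only that these letters stand in the window, and counts over whole gene spans do not tell which start site was used.

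Of the fixed markers, Rgs9 went with the ranking and Adora2a only in part. All levels from here on are CPM of the library scaled by the trimmed mean of M values (TMM), and differences are of mean log2 CPM, Drd2-high minus Drd2-low. Rgs9 (chromosome 11, 109225355 to 109298129 on GRCm38, minus strand) had 37.9, 30.1, 30.3 and 33.8 CPM in the 4 Drd2-high libraries, in the order given above, against a lowest of 7.25, a median of 10.99 and a highest of 13.4 CPM in the Drd2-low libraries. The means were 33 ± 3.66 CPM in the Drd2-high and 11.02 ± 1.84 CPM in the Drd2-low libraries (SD, n = 4 and 12), a difference of 1.59. The sets did not overlap, and the 4 Drd2-high libraries also lay above the highest middle library at 21.4 CPM.

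Adora2a (chromosome 10, 75316877 to 75334784, plus strand) had 4.08, 5.70, 3.54 and 4.17 CPM in the Drd2-high libraries, against 0.499, 1.53 and 4.33 CPM as the lowest, median and highest in the Drd2-low libraries. The mean difference of 1.66 was as large as that of Rgs9, but stressed knockdown library 1, a Drd2-low library, lay above 3 of the 4 Drd2-high ones. In the middle set, stressed LacZ library 2 had 6.51 CPM, more than any Drd2-high library. A ranking by Adora2a would keep only 1 of the 4 Drd2-high libraries in its top 4, whereas a ranking by Rgs9 would keep all 4.

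**Figure D1:**
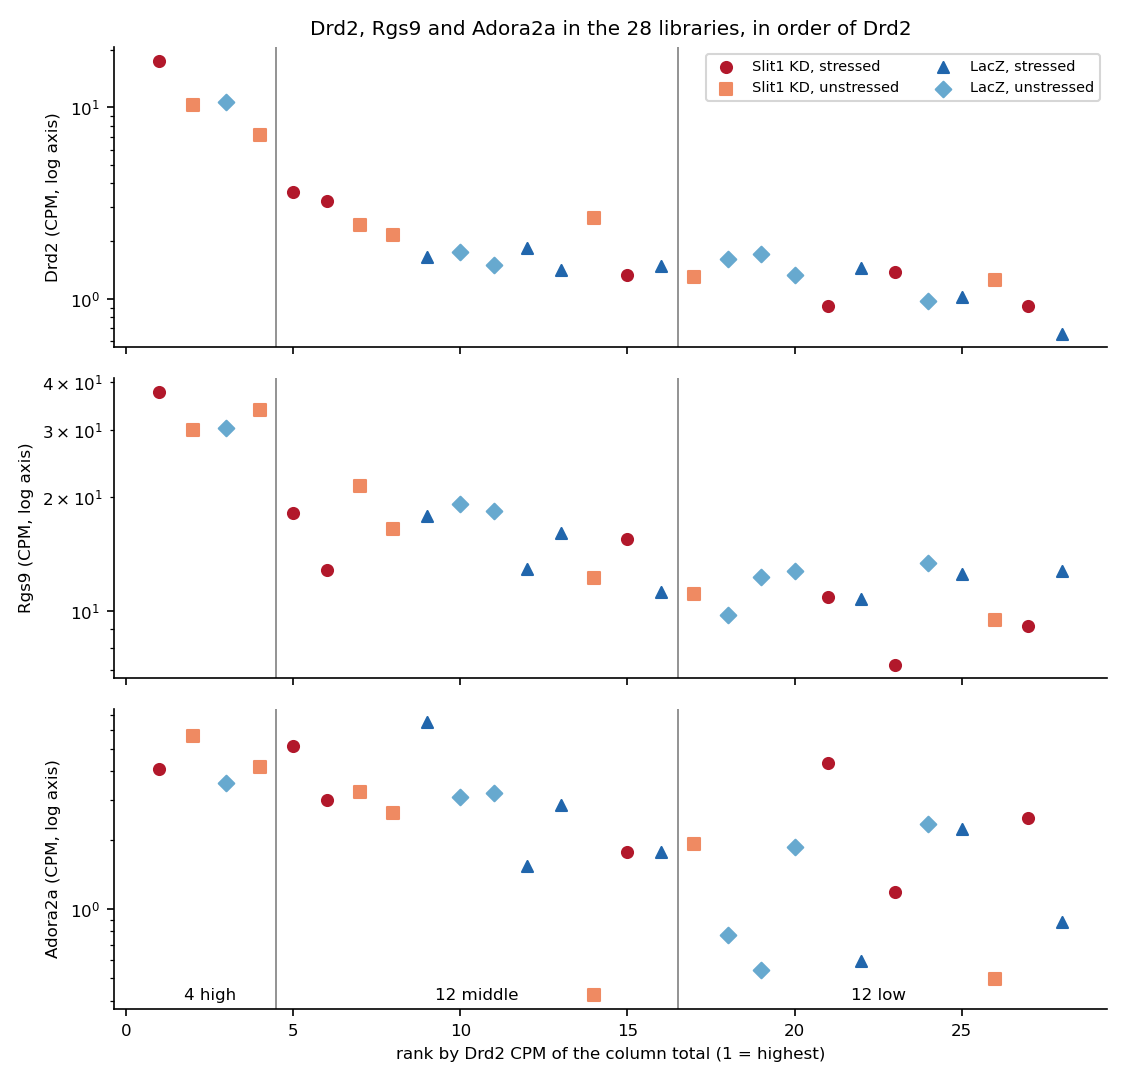
Drd2, Rgs9 and Adora2a in CPM (log axes) in all 28 libraries, from the highest to the lowest rank by Drd2, with symbols for the 4 groups and lines between the 4 high, 12 middle and 12 low libraries. Rgs9 was at 30.1 CPM or more in the 4 Drd2-high libraries and at 21.4 CPM or less in all others, while Adora2a overlapped between the sets.

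Their working name as libraries with striatal tissue was thus met by its markers only in part, and the 4 are called Drd2-high here. In bulk tissue, more cells of a type and more RNA per cell cannot be told apart. The label also met a limit in 3 striatal genes with few or no counts. Counts were taken over whole gene spans and without strand. Ppp1r1b (DARPP-32, a standard marker of striatal projection neurons) reached at most 23 counts in any library, with 75.4% of its span shared with other genes. Rasgrp2 was at 0 everywhere, with 36.6% of its span shared, and Six3 at 55 counts or less, with 41.8% shared. All 3 fell under the filter on low counts, and whether the overlap kept their counts low was not tested. Of the files' genes, 19170 besides Drd2 passed that filter and are called measured. A gene could pass through its high libraries alone, so counts over the measured members of a list are descriptions.

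A gene is said to separate the sets when all 4 Drd2-high libraries lie on 1 side of all 12 Drd2-low ones and the means of log2 CPM differ by at least 1. By that rule 47 genes, 0.245% of those measured, were higher in the Drd2-high libraries and 62, 0.323%, were lower. With the unscaled library totals the counts were 74 higher and 35 lower, since that scaling raised the median difference of all genes by 0.21, and values here are to be read against the TMM median of 0.08. Of all genes, 56.1% had a difference above 0.

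The counts depended on 1 library more than on any other. Without unstressed knockdown library 2, 134 genes (0.699%) were higher and 136 (0.709%) lower in the 3 remaining Drd2-high libraries. Without stressed knockdown library 7 there were 78 higher, without unstressed knockdown library 6 there were 71 higher, and without unstressed LacZ library 6 there were 94 lower. Taken singly, stressed knockdown library 7 held 104 genes (0.543%), unstressed knockdown library 6 held 345 (1.8%), unstressed LacZ library 6 held 78 (0.407%) and unstressed knockdown library 2 held 284 (1.48%) that lay above all 12 Drd2-low libraries and at least 4-fold over their mean. In a middle library it was 6 to 1975 genes.

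The indirect pathway genes were higher as a list but none of them separated the 4 Drd2-high libraries from the 12. All 6 measured members, out of 7 listed, had a difference above 0, with a median of 1.44. Penk, the enkephalin precursor, had 27.7, 27.7, 16.47 and 7.55 CPM in the Drd2-high libraries, against 3.19, 5.96 and 11.7 CPM as the lowest, median and highest in the Drd2-low libraries. Gpr6, an orphan receptor of indirect pathway neurons, had 3.98, 1.998, 1.86 and 0.0206 CPM in the Drd2-high libraries, against 0.102, 0.266 and 1.02 CPM in the Drd2-low libraries. For both, the first 3 Drd2-high libraries lay above all 12, and unstressed knockdown library 2 fell in or under the low range. Its Gpr6 value rested on 1 count, against 157, 94 and 75 counts in the other 3.

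The other 3 indirect pathway members overlapped between the sets. Sp9, a transcription factor of this lineage, differed by 0.72, Ido1, which breaks down tryptophan, by 1.37, and the kainate receptor subunit Grik3 by 0.70. The Grik3 difference came from 1 library: unstressed knockdown library 2 had 233.5 CPM, against 32.7 to 68.2 CPM in the other Drd2-high and 22.52 to 76.0 CPM in the Drd2-low libraries, and without it the difference was 0.13.

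Genes of the direct pathway, which do not carry Drd2 as a rule, were higher too. Of 8 members, 7 had a difference above 0, with a median of 0.96, and 0 separated the sets. Isl1, a transcription factor needed to form direct pathway neurons, had 13.3, 3.78, 4.23 and 0.227 CPM in the Drd2-high libraries, against 0, 0.0916 and 0.570 CPM as the lowest, median and highest in the Drd2-low libraries. The first 3 stood above all 12, and unstressed knockdown library 2, with 11 counts, stood inside the low range. Drd1 had 51.2, 26.3, 33.1 and 16.6 CPM in the Drd2-high libraries, against 8.64, 15.1 and 23.8 CPM in the Drd2-low libraries, with the same library as the only one of the 4 inside the low range.

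Tac1, the substance P precursor, showed the same order with 71.0, 24.8, 21.9 and 4.995 CPM in the Drd2-high libraries, against 4.39, 11.8 and 17.0 CPM in the Drd2-low libraries. Slc35d3, a transporter family member that affects D1 receptor traffic in mice, had 5.83, 1.87, 1.83 and 0.227 CPM, against 0.0380, 0.338 and 0.784 CPM in the Drd2-low libraries. Pdyn, the dynorphin precursor, differed by 0.55, the muscarinic receptor Chrm4 by 1.19 with overlapping sets, and the transcription factors Ebf1 and Eya1 by 0.36 and -0.23. Without unstressed knockdown library 2, Isl1, Drd1, Tac1 and Slc35d3 separated the sets, as did Penk and Gpr6 of the indirect list.

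**Figure D2:**
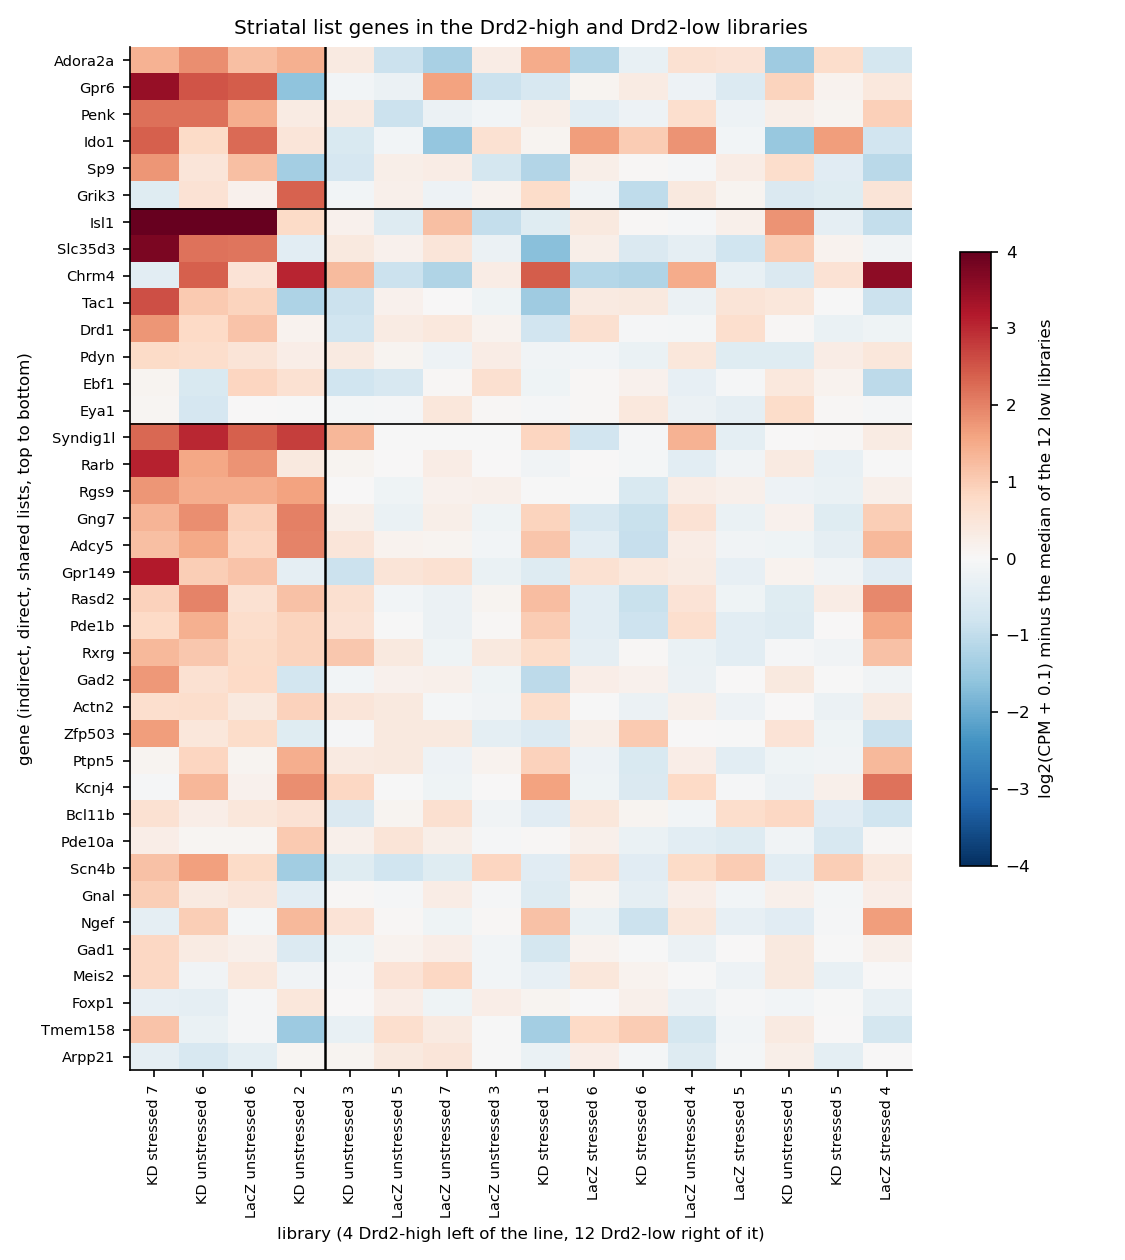
Measured genes of the striatal lists (rows) in the 4 Drd2-high libraries (left of the line) and the 12 Drd2-low libraries (right), coloured by log2(CPM + 0.1) minus the median of the Drd2-low libraries, with colours that stop at 4. Gpr6, Isl1, Slc35d3 and Tac1 were high in the first 3 columns and not in unstressed knockdown library 2, whereas Rgs9 and Syndig1l were high in all 4.

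Genes shared by both kinds of striatal projection neuron differed less. Of 25 measured members, out of 28 listed, 22 had a difference above 0 with a median of 0.50, and 3 separated the sets: Rgs9, Rarb and Syndig1l. Rarb (chromosome 14, 16430839 to 16819156, minus strand) had 192.4, 65.6, 78.6 and 29.5 CPM in the Drd2-high libraries, against a lowest of 16.6 and a highest of 29.1 CPM in the Drd2-low libraries. The promoter window printed above lies inside this span, and the counts do not tell transcripts from that start site apart from others. Unstressed knockdown library 2 cleared the highest Drd2-low value only narrowly, and a middle library at 30.3 CPM lay above it. Syndig1l (capucin), a membrane protein of the caudate and putamen, was scarce at 0.735, 1.28, 0.791 and 1.07 CPM in the Drd2-high libraries, from 29 to 60 counts, against 0, 0.0707 and 0.346 CPM in the Drd2-low libraries.

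Other well known striatal genes overlapped between the sets. The phosphodiesterase Pde10a had 280.7, 244.4, 249.4 and 479.9 CPM, against 150.7, 234.0 and 332.5 CPM in the Drd2-low libraries, a difference of 0.43.

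The G protein subunits of striatal neurons overlapped between the sets too. Gnal, the olfactory-type stimulatory α subunit of striatal neurons, had 240.7, 155.8, 168.8 and 91.2 CPM in the Drd2-high libraries, against 85.4, 121.1 and 147.6 CPM in the Drd2-low libraries. Gng7, the γ subunit found with it, had 20.8, 29.9, 15.9 and 32.9 CPM, against 4.32, 8.20 and 16.1 CPM, so that 3 of the 4 lay above the low range, unstressed knockdown library 2 the highest among them. Adcy5, the main adenylyl cyclase of these neurons, had 42.0, 51.9, 32.9 and 71.7 CPM, against 9.67, 18.3 and 45.3 CPM, and overlapped as well.

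Among the remaining shared genes the sodium channel β subunit Scn4b differed by 0.41, the receptor Gpr149 by 1.24, the cyclic nucleotide phosphodiesterase Pde1b by 0.84 and the small G protein Rasd2 by 0.97. The transcription factors Foxp1, Meis2, Bcl11b and Zfp503 differed by -0.07, 0.12, 0.45 and 0.57. The GABA-synthesising enzyme Gad2 had 496.6, 226.2, 259.3 and 89.7 CPM in the Drd2-high libraries, against 71.7, 148.0 and 192.1 CPM in the Drd2-low libraries. Once more the first 3 stood above all 12 and unstressed knockdown library 2 in the low range. The vesicular GABA transporter Slc32a1, which is on no list and was picked after its values were seen, separated the sets with 5.22, 5.34, 3.04 and 3.06 CPM, against 1.00 to 2.72 CPM in the Drd2-low libraries. Middle libraries reached 6.48 CPM of Slc32a1, more than any Drd2-high library.

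**Figure D3:**
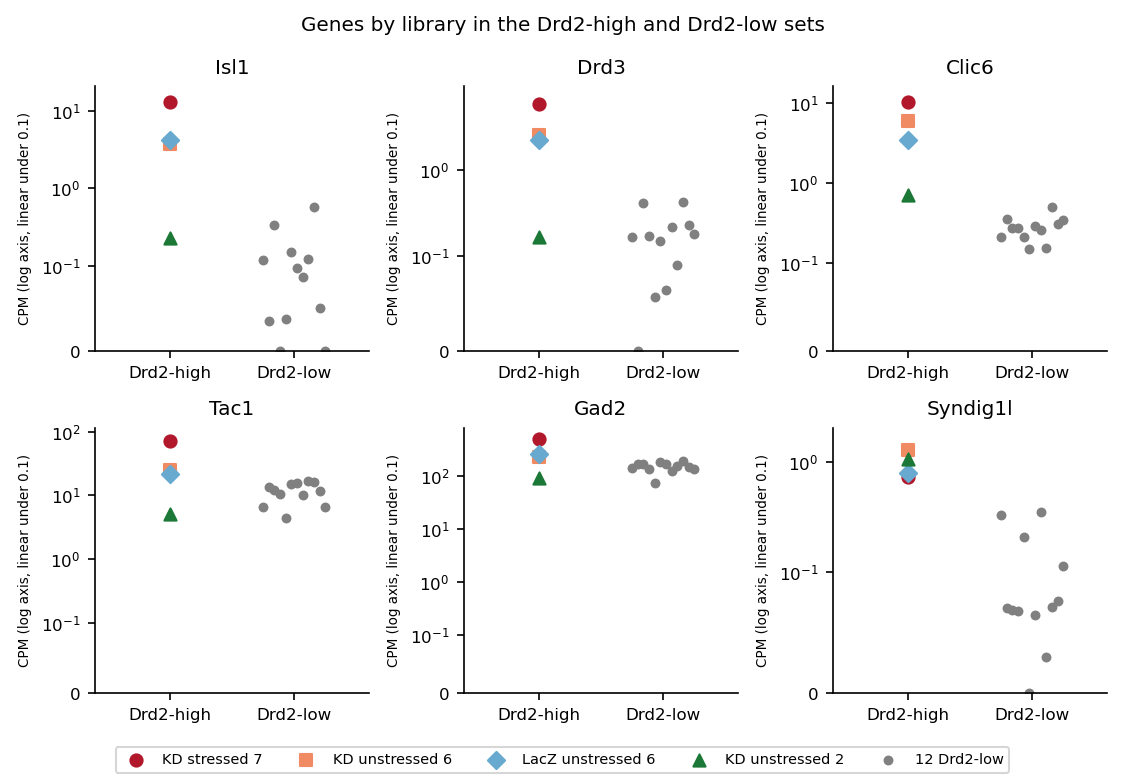
CPM of 6 genes in the 4 Drd2-high libraries (coloured symbols) and the 12 Drd2-low libraries (grey), on log axes that are linear under 0.1 CPM. Unstressed knockdown library 2 stood in the low range for Isl1, Drd3, Tac1 and Gad2, just above it for Clic6 with 0.702 CPM, and with the other 3 for Syndig1l.

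The genes that separated the sets by the largest differences were mostly of no fixed list. Clic6 (chromosome 16, 92485736 to 92541243, plus strand), of the chloride intracellular channel family, had 10.1, 5.89, 3.41 and 0.702 CPM in the Drd2-high libraries, against 0.149, 0.273 and 0.499 CPM as the lowest, median and highest in the Drd2-low libraries, a difference of 3.496. Ccdc187, a coiled-coil protein, had 9.04, 5.87, 4.70 and 0.949 CPM, against 0.0340, 0.331 and 0.684 CPM, a difference of 3.47. Both were lowest in unstressed knockdown library 2 among the 4, though still above all 12. Middle libraries reached 2.21 CPM of Clic6 and 1.58 CPM of Ccdc187, above the values of that library.

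Some of the genes with the next largest differences encode channels or their subunits. The calcium-activated chloride channel Ano2 differed by 2.40, the ATP-gated channel P2rx5 by 2.30 and the calcium channel subunit Cacna2d2 by 1.94. Middle libraries reached 5.67 CPM of Ano2, 2.83 CPM of P2rx5 and 15.5 CPM of Cacna2d2. The lowest Drd2-high values were 3.59, 1.04 and 7.69 CPM, so these levels were not confined to the Drd2-high libraries. The prolactin receptor Prlr had 6.76, 4.61, 2.97 and 1.96 CPM in the Drd2-high libraries, against 0.340, 0.619 and 1.21 CPM in the Drd2-low libraries, and the middle libraries reached 1.90 CPM. Gdnf, a growth factor for dopamine neurons, differed by 1.86, the transcription factor Prdm12 by 2.64, the diacylglycerol kinase Dgkk by 1.80, the kinase Nek5 by 1.77 and Ccdc170 by 1.93. For Gdnf, Prdm12, Dgkk and Ccdc170 the highest middle library lay above the lowest Drd2-high one, and for Nek5 it did not.

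Against all 24 other libraries in place of the 12, 9 genes separated as higher and 2 as lower. The 9 were Rgs9, Syndig1l, Prlr, Nek5, Stard5, Dnah6, the AMPA receptor auxiliary subunit Cacng5 and the predicted genes Gm36033 and Gm16277. The 2 lower ones were Dppa1 and the predicted gene Gm14461. Those of them described nowhere else here were named after their values were seen. Prlr had the largest difference of them at 2.39.

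Drd3, the dopamine D3 receptor gene of the ventral striatum and its islands of Calleja, followed the pattern of Isl1. It had 5.98, 2.59, 2.23 and 0.165 CPM in the Drd2-high libraries, against 0, 0.168 and 0.427 CPM as the lowest, median and highest in the Drd2-low libraries. All 7 measured genes of the ventral striatal list had a difference above 0, with a median of 1.29, and 1 of them, the lipid-binding protein Stard5, separated the sets; without unstressed knockdown library 2 it was 5 of 7. The peptide precursor Cartpt had 6.43, 3.49, 1.56 and 0.970 CPM in the Drd2-high libraries, against 0.283, 0.815 and 1.49 CPM in the Drd2-low libraries.

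Genes of regions and cells beside the striatum moved as well, and their part in the striatal result was not tested. All 8 measured genes of the lateral septum list had a difference above 0 with a median of 1.07, and their summed level was 403, 196.5, 228.1 and 109.5 CPM in the Drd2-high libraries, against 68.9 to 164.3 CPM in the Drd2-low libraries. Zic1, a zinc finger transcription factor of that list, had 158.0, 48.0, 68.2 and 11.4 CPM, against 9.08, 14.1 and 41.6 CPM in the Drd2-low libraries. Glp1r, the receptor for glucagon-like peptide 1, had 1.47, 3.00, 0.989 and 0.145 CPM, against 0.0340, 0.0753 and 0.304 CPM in the Drd2-low libraries. Of that list 0 genes separated all 4 and 4 did so without unstressed knockdown library 2.

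High septal and GABAergic levels were not confined to the Drd2-high libraries. Unstressed knockdown library 7, of middle rank, had 1.63 CPM of Drd2 over the total and 2.63 CPM with TMM scaling. On the TMM scale the Drd2-low libraries reached 1.71 CPM and the Drd2-high ones began at 7.14 CPM. This middle library had 96.8 CPM of Zic1, 269.6 CPM of Gad2 and 1.48 CPM of Isl1, with 14.2% of its counts from mitochondrial genes. Its Drd3 level of 0.158 CPM lay in the range of the Drd2-low libraries.

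Lists of cholinergic neurons and of other lineages were also mostly above 0. The striatal cholinergic list, of which 4 of 8 genes were measured, summed to 47.5, 12.1, 10.9 and 10.9 CPM in the Drd2-high libraries, against 4.70 to 9.69 CPM in the Drd2-low libraries. Most of the sum in stressed knockdown library 7 was Slc5a7, the choline transporter, with 34.7 CPM there, 1.65 to 5.81 CPM in the other 3 and 0.949 to 4.99 CPM in the Drd2-low libraries. Of the neuroblast and subventricular zone list 10 of 11 genes had a difference above 0, with a median of 0.58. Igfbpl1 of that list had 3.55, 3.996, 3.56 and 0.743 CPM in the Drd2-high libraries, against 0.0227, 0.249 and 2.57 CPM in the Drd2-low libraries. All 6 measured ependymal and choroid plexus genes had a difference above 0, with a median of 1.31 at levels of 7.42 to 10.9 CPM summed in the Drd2-high and 2.38 to 6.00 CPM in the Drd2-low libraries.

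Myelin genes were higher as well. All 12 had a difference above 0 with a median of 0.91, and 2 separated the sets. Mobp had 27.1, 29.0, 25.2 and 28.7 CPM in the Drd2-high libraries, against 4.83, 9.44 and 17.1 CPM in the Drd2-low libraries, and Opalin had 4.21, 4.97, 8.06 and 5.22 CPM, against 1.22, 2.29 and 3.95 CPM. Unstressed knockdown library 2 stood with the other 3 for both. The summed myelin level nevertheless overlapped, at 1128, 797.7, 1348 and 580.3 CPM in the Drd2-high libraries, against 301.1 to 985.2 CPM in the Drd2-low libraries. The middle libraries reached 33.1 CPM of Mobp, 7.95 CPM of Opalin and 2253 CPM summed. High myelin levels were thus not confined to the Drd2-high libraries.

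The genes of cortical excitatory neurons were lower in the Drd2-high libraries. Of 13 measured, 1 had a difference above 0, the median was -0.62, and the summed level was 1521, 1859, 2066 and 2260 CPM in the Drd2-high libraries, against a lowest of 2112, a median of 3510 and a highest of 4543 CPM in the Drd2-low libraries. Unstressed knockdown library 2 was the only one of the 4 inside the low range. Neurod6 differed by -1.26 and Mef2c by -0.96, both with overlap. The upper layer list had 2 of 9 genes above 0 with a median of -0.46, and the deep layer list 9 of 12 with a median of 0.30. Without unstressed knockdown library 2 the deep layer list had 6 of 12 above 0 with a median of 0.006.

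**Figure D4:**
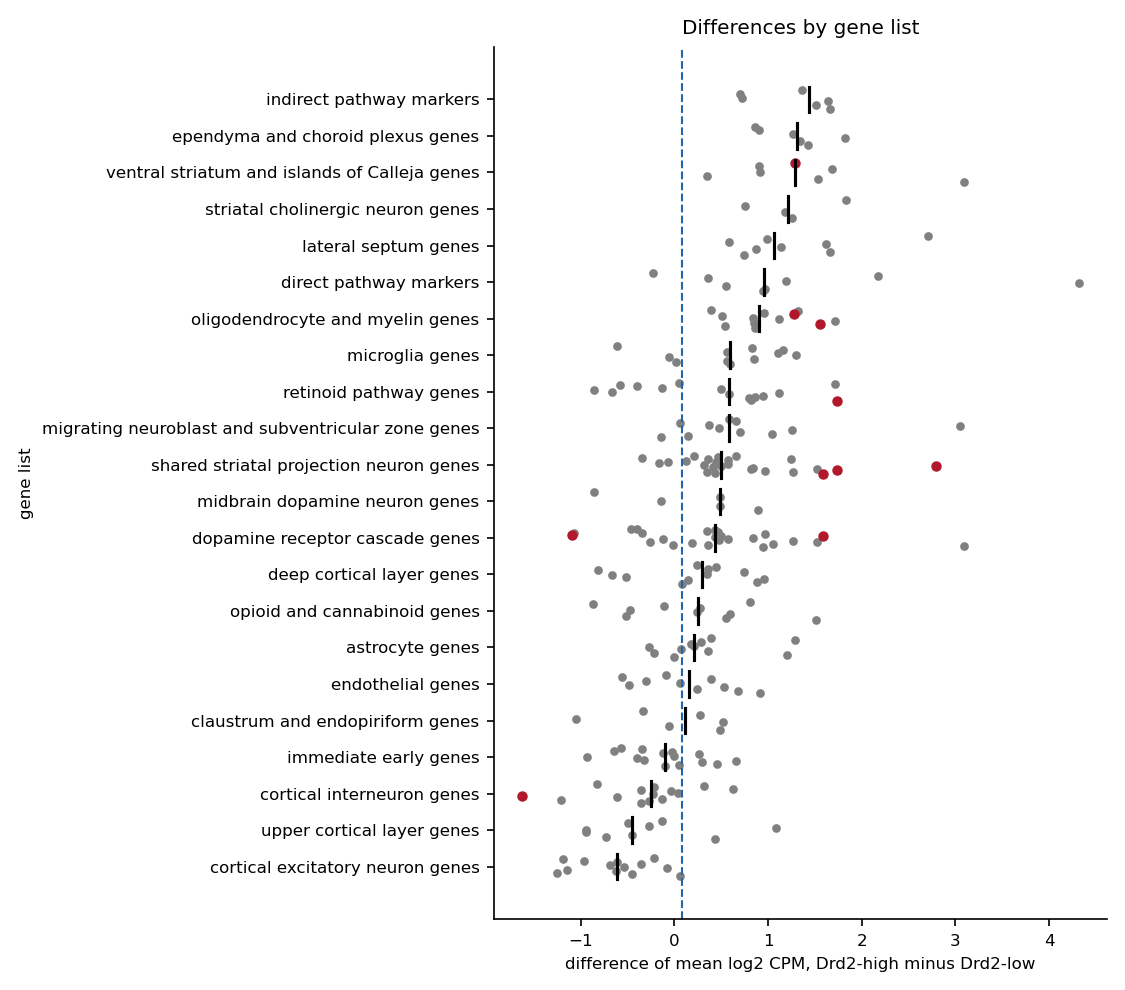
Differences of mean log2 CPM, Drd2-high minus Drd2-low, for the measured genes of the 22 lists (points; red where the gene separates the sets), with the median of each list as a bar and the median of all genes (0.08) as a dashed line. The indirect pathway list had the highest median at 1.44 and the cortical excitatory list the lowest at -0.62.

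Of the 62 genes that separated the sets as lower, 2 were on a list, Rgs4 of the dopamine cascade and Crh of the cortical interneurons. Scn7a (chromosome 2, 66673425 to 66784914, minus strand), which encodes the sodium level sensor Nax, had 8.49, 9.10, 11.7 and 11.1 CPM in the Drd2-high libraries, against 17.5, 39.2 and 64.8 CPM as the lowest, median and highest in the Drd2-low libraries, a difference of -1.96. Adcyap1, the precursor of the neuropeptide PACAP, had 4.74, 14.9, 16.52 and 21.8 CPM, against 24.1, 40.8 and 57.5 CPM. Crh, corticotropin-releasing hormone, which some cortical interneurons make, had 0.659, 0.999, 1.11 and 1.01 CPM, against 1.6, 3.33 and 4.59 CPM. Middle libraries went as low as 6.55 CPM of Scn7a, 13.1 CPM of Adcyap1 and 0.783 CPM of Crh, so such levels were not confined to the Drd2-high libraries.

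Camk2n1, an inhibitor of the kinase CaMKII, was the most abundant in counts of the named lower genes, with 213, 349.6, 291.8 and 222.1 CPM in the Drd2-high libraries, against 394.5, 679.2 and 872.4 CPM in the Drd2-low libraries. The collagen Col19a1 differed by -1.21, the activin-binding protein follistatin (Fst) by -1.35, Xirp2, known as an actin-binding protein of muscle, by -2.34, Skint11 by -1.74, Mfsd13b by -1.75, Spag6 by -1.36 and Olfr53 by -1.22. Medag differed by -1.75, with 94.8% of its span shared with other genes. Rgs4, a regulator of G protein signalling on the dopamine cascade list, also separated as lower, with a mean of 140.5 CPM in the Drd2-high and 301.0 CPM in the Drd2-low libraries. Of that list, 17 of 25 measured genes had a difference above 0 with a median of 0.43, and Rgs9 and Rgs4 were the only ones that separated.

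Glial and vascular lists other than myelin stood closer to the median of all genes. Astrocyte genes had 8 of 11 above 0 with a median of 0.21, microglial genes 9 of 11 with 0.60 (highest in unstressed knockdown library 6, at 818.8 CPM summed, against 314.6 to 395 CPM in the other Drd2-high and 218.8 to 534.9 CPM in the Drd2-low libraries), and endothelial genes 6 of 10 with 0.15. Cortical interneuron genes had 3 of 14 above 0 with a median of -0.25. The retinoid list had 10 of 15 with 0.59, the opioid and cannabinoid list 6 of 10 with 0.26, the midbrain dopamine list 3 of 5 with 0.48, the claustrum list 3 of 6 with 0.11 and the immediate early genes 5 of 15 with -0.10. The tyrosine hydroxylase gene Th was at 0.0989 to 0.433 CPM in the Drd2-high and 0 to 0.316 CPM in the Drd2-low libraries.

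Library properties overlapped in range between the sets, but some of their medians lay apart. Totals, in units of 1e6 counts, were 38.7 to 44.3 in the Drd2-high and 31.1 to 42.1 in the Drd2-low libraries. The numbers in the sample titles ran from 27 to 38 in the Drd2-high libraries (median 35.5) and from 3 to 36 in the Drd2-low ones (median 18). What order these numbers follow is not known, and its part in the differences was not tested. Mitochondrial genes took 2.30% to 6.40% of counts in the Drd2-high and 3.09% to 10.48% in the Drd2-low libraries, with medians of 5.10% and 7.00%. The first principal component of all 28, with 58.8% of the variance, ran from -59.5 to 46.9 in the Drd2-high and from -64.8 to 99.6 in the Drd2-low libraries. Its medians were -15.6 in the Drd2-high and 44.2 in the Drd2-low libraries, so the sets were not matched on it. With that component regressed out 114 genes were higher and 91 lower, and with the mitochondrial share regressed out 99 were higher and 65 lower.

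The 12 libraries of middle rank, which were in neither set and were delimited by their own Drd2 values, gave a test of whether genes moved with Drd2 over its range of 1.47 to 4.42 CPM of the total. The slope of each gene on log2 Drd2 was fitted with edgeR's quasi-likelihood test and the first principal component as a covariate. No gene passed a Benjamini-Hochberg adjusted p of 0.05 (0 of 19170, 0%), 1388 (7.24%) had an unadjusted p under 0.05, DESeq2 called 1 gene, Rcan2, and limma voom called 0. Rgs9 had a slope of 0.09 ± 0.11 (SE; edgeR adjusted p = 0.799) and Adora2a of 0.57 ± 0.26 (edgeR adjusted p = 0.635, unadjusted p = 0.0468). Neither passed the test.

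The genes that separated the sets gave these slopes, with no test between the higher and the lower ones. Of the 47 higher genes 24 had a slope above 0, or 51.1%, with a median of 0.01, and of all genes it was 45.1% with a median of -0.02. Of the 62 lower genes 3 had a slope above 0, or 4.84%, with a median of -0.43. No member of either set passed the adjusted test, and 3 of the 47 and 13 of the 62 had an unadjusted p under 0.05. The largest slope named was that of P2rx5 at 1.18 ± 0.31 (SE; edgeR adjusted p = 0.635). Clic6 had a slope of 0.06 ± 0.61, Scn7a of -0.47 ± 0.35 and Rarb of 0.07 ± 0.21.

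With predicted genes left out, the 10 genes of the smallest p in this fit were Rcan2, Cabp1, Cntnap1, Slc1a3, Pcp4, Hipk4, Cyp26b1, Scn1a, Dcdc2a and Gls2, all with an edgeR adjusted p of 0.635. Slc1a3, a glutamate transporter of astrocytes, and Dcdc2a had slopes above 0 at 0.41 ± 0.09 and 0.70 ± 0.17 (SE), and the other 8 had slopes under 0. Of the striatal lists, 4 of 6 indirect, 5 of 8 direct and 6 of 25 shared genes had a slope above 0, with medians of 0.18, 0.04 and -0.17, and 0 of them passed the adjusted test.

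**Figure D5:**
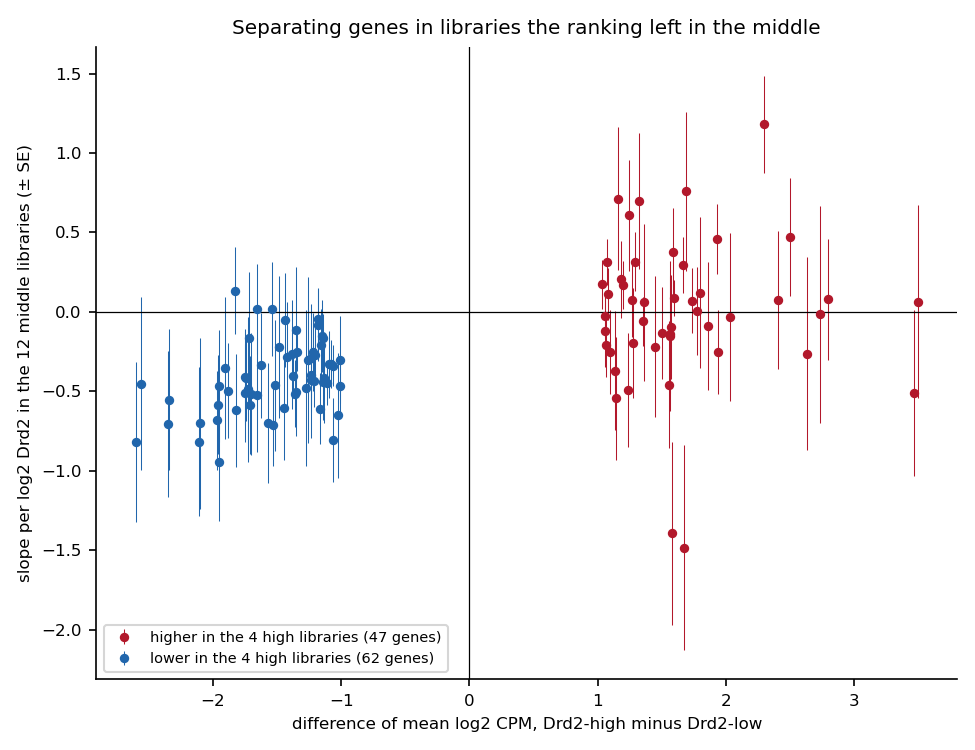
Slope per log2 Drd2 in the 12 middle libraries (± SE) against the difference Drd2-high minus Drd2-low for the 47 genes that separated the sets as higher (red) and the 62 as lower (blue). The blue genes lay under 0 except for 3, and the red ones lay on both sides of 0, 24 of them above it.

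The Drd2-high libraries bear on the comparisons the study was built for, since 3 of them were labelled knockdown and 1 LacZ. Slit1, the targeted gene, did not differ past the test under the knockdown label. It averaged 18.2 ± 9.80 CPM in stressed knockdown and 19.8 ± 10.2 CPM in stressed LacZ libraries, and 25.8 ± 17.5 CPM in the knockdown and 24.4 ± 16.1 CPM in the LacZ libraries without stress (SD, n = 7 each). The log2 fold change was -0.12 ± 0.43 with stress and 0.09 ± 0.43 without (SE, edgeR adjusted p = 1 in both), and without the 4 Drd2-high libraries the unstressed value was -0.40, so no direction is drawn from the knockdown label.

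No gene passed the edgeR test in any of the 4 comparisons of conditions (0 of 19171, 0%), and DESeq2 called 0 as well. An unadjusted p under 0.05 was reached by 172 genes (0.897%) for knockdown against LacZ without stress, 158 (0.824%) for knockdown against LacZ with stress, 77 (0.402%) for stress against none in LacZ mice and 343 (1.79%) for stress against none in knockdown mice. Rgs9 averaged 15.96 ± 10.3 CPM in stressed knockdown and 13.5 ± 2.57 CPM in stressed LacZ libraries (SD, n = 7 each). Its log2 fold change was 0.25 ± 0.33 (SE, edgeR adjusted p = 1), and -0.13 without the 4 Drd2-high libraries. Without stress it was 0.21 ± 0.33 (edgeR adjusted p = 1), and -0.02 without them.

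Several genes that were highest in stressed knockdown library 7 had large fold changes between knockdown and LacZ under stress without passing the test. Isl1 had a log2 fold change of 4.38 ± 1.48, Drd3 of 3.10 ± 1.08 and Rarb of 1.19 ± 0.49 (SE), each with an edgeR adjusted p of 1. That library held 13.3 CPM of Isl1, and the other 6 of its group held 0.0380 to 0.181 CPM. In stressed LacZ libraries Isl1 ran from 0 to 0.155 CPM. Of the striatal list members in this comparison, 5 of 6 indirect, 7 of 8 direct and 15 of 25 shared genes had a fold change above 0, with medians of 0.31, 0.23 and 0.08, against a median of -0.03 over all genes. Of all 19171 genes, 8110 had a fold change above 0.

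The other comparisons, which share libraries with this one, did not all run the same way. For knockdown against LacZ without stress, 3 of 6 indirect, 4 of 8 direct and 11 of 25 shared genes had a fold change above 0, with medians of 0.06, 0.01 and -0.01. For stress against none in LacZ mice it was 2 of 6, 0 of 8 and 2 of 25, with medians of -0.16, -0.15 and -0.255. For stress against none in knockdown mice it was 3 of 6, 7 of 8 and 9 of 25, with medians of 0.10, 0.22 and -0.05. The medians over all genes were -0.01 in each of these 3 comparisons. Of all 19171 genes, 9020, 8725 and 9109 had a fold change above 0, in the same order.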

How the data were processed

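RNA of 28 mice was measured as 1 library each. The authors deposited, for each gene, the raw count of fragments from featureCounts 1.6.2, with read pairs, Ensembl 90 genes of GRCm38, whole gene spans (introns included) and no strand option, on alignments named as free of duplicates, per the file headers. HISAT2, Subread and DESeq2 with mm10 were named, per the submitters' processing notes. The kit keeps strand, per the labels' protocols, but the counting did not use it, so antisense reads were not separated from those of the gene. Fragments in overlapping genes were counted for neither gene, so a gene inside another is listed at or near 0. Of 52636 genes, 52403 identifiers matched a symbol.

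Genes were kept by filterByExpr by group, scaled by TMM, with a prior count of 2 for log2 CPM (edgeR 4.0.16, limma 3.58.1, DESeq2 1.42.0, R 4.3.3; figures with matplotlib 3.10.9). The slope in the middle libraries and the comparisons of conditions used glmQLFit and glmQLFTest with Benjamini-Hochberg adjustment at 0.05 over all genes. The steps were tested on simulated data. For the slope the planted changes were larger than any slope named here, so that run does not show whether smaller slopes would be found. p-values measure the spread between single mice. Named were the 12 largest separating differences in each direction among genes with at least 1 CPM in the higher set and no predicted name, all members of the 3 striatal lists, and up to 4 members of every other list. A few genes that this rule names are not reported here. The members and all lists were chosen with earlier results of these data known. No pair among 378 pairs of libraries held identical counts. Counting error alone limits values of a few counts, such as 1 count of Gpr6. Alternatives were other scalings, filters, rankings, covariates and tools, and leaving out single libraries.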

Additional observations from a re-analysis of the deposited data

Results flagged for a closer look

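In groups of 4 to 10 libraries, a highest or lowest value was looked at again when its gap to the nearest other value took up most of the group's range (Dixon's 95% criterion). Of 161 groups of values over 133 genes (Drd2 left out), 21 held such a value. Chance gives about 1 in 20 where genes are not picked by their values. Most genes looked at within the study groups were picked for being high in the Drd2-high libraries. The 21 of 161 therefore does not measure an excess over chance.

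Among the 4 Drd2-high libraries, stressed knockdown library 7 stood apart with 34.7 CPM of the choline transporter Slc5a7, 10.6 CPM of the calcium-binding protein Calb2 and, at the low end, 9.09 CPM of the myelin gene Mag. Unstressed knockdown library 6 stood apart with 18.9 CPM of Cd68, a lysosomal protein of microglia, and at the low end with 18.4 CPM of Eya1. Unstressed knockdown library 2 stood apart with 479.9 CPM of Pde10a and 13.6 CPM of the deep layer gene Ntsr1, against 0.963 to 2.89 CPM of Ntsr1 in the other 3, and at the low end with 0.743 CPM of Igfbpl1.

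Slit1 and 6 other genes, most of them described above for being high in the Drd2-high libraries, were also looked at within the 7 libraries of each study group, so that these values describe the libraries and support nothing. Stressed knockdown library 7 stood apart from its group with 37.9 CPM of Rgs9, 13.3 CPM of Isl1, 5.98 CPM of Drd3, 10.1 CPM of Clic6 and 158.0 CPM of Zic1. Unstressed LacZ library 6 did so with 4.23 CPM of Isl1, 2.23 CPM of Drd3, 3.41 CPM of Clic6 and 68.2 CPM of Zic1. Unstressed knockdown library 6 did so with 3.78 CPM of Isl1, 2.59 CPM of Drd3 and 5.89 CPM of Clic6. Stressed LacZ library 2, of middle Drd2 rank, did so with 6.51 CPM of Adora2a, against 0.594 to 2.85 CPM in the other 6 of its group.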

How the results depend on the processing

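The number of genes separating the sets kept within 1.5 times of 47 higher and 62 lower under the other size factors, filters and prior count and under a ranking by TMM-scaled Drd2. It moved to 74 higher and 35 lower with unscaled totals, 144 and 127 with a ranking by Rgs9, 1263 and 665 with a ranking by Adora2a, 9 and 2 against all 24 others, and 83 and 124 with no minimum difference. It was 114 higher with the first principal component and 99 higher with the mitochondrial share regressed out. Leaving out 1 Drd2-high library gave 70 to 134 higher and 70 to 136 lower, the highest counts of both without unstressed knockdown library 2. Some causes follow from construction (fewer libraries to clear, a lower bar, or more libraries to clear); for the rankings and covariates the cause was not tested.

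The slope on Drd2 in the middle libraries called 0 genes, 1 with DESeq2, and 0 to 1 when 1 library was left out, the 1 without stressed LacZ library 3. With Adora2a as the predictor in place of Drd2 it called 5118. The comparisons of conditions called 0 genes under every alternative run.

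The named values that reversed were these. Ccdc170 was at -0.011 with the ranking by Adora2a. The Clic6 slope was -0.709 with no covariate, -0.08 with the mitochondrial share as covariate, -0.536 with limma voom, and -0.93 to 0.61 with 1 library left out. The Slit1 fold change without stress was -0.008 with Adora2a as covariate and -0.40 without the 4 Drd2-high libraries. The Rgs9 fold change was -0.02 without stress and -0.13 with stress when these 4 were left out, and -0.006 with stress when Adora2a was a covariate. No paired analysis was possible because the labels give no replicate numbers shared between groups. Depth limits genes such as Syndig1l, Gpr6 and Isl1, which had 60 or fewer counts in some Drd2-high libraries.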
